A study of Mus musculus with 20 samples.

Results

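The nuclear genes of mitochondrial oxidative phosphorylation were followed through their promoters in mouse fibroblasts that had lost Ash2l, a core subunit of the KMT2 complexes that methylate lysine 4 of histone H3. H3K4me3 promoter regions were taken when the deposited annotation gave them a gene name beginning with Ndufa, Ndufb, Ndufc, Ndufs, Ndufv, Uqcr, Cox4 to Cox8 or Atp5, or one of Sdha to Sdhd. This gave 80 regions of 72 genes, out of 15584 promoter regions and 22343 H3K4me3 regions in all. By complex, 37 regions belonged to complex I, 6 to complex II, 7 to complex III, 13 to complex IV and 15 to complex V, and 2 lay near Ndufa4l2, a paralog that is not a standing subunit. Of the 117165 H3K4me1 regions used, 110 shared at least 1 bp with one of these regions. The cells were embryo fibroblasts of Ash2l fl/fl;Cre-ER mice from 2 litters, immortalized with an shRNA against p19Arf, and named KO1 (iMEF1) and KO2 (iMEF2). They received 5 nM 4-hydroxytamoxifen (+HOT), which lets Cre-ER recombine exon 4 of Ash2l, or the ethanol vehicle (-HOT), for 5 days. Each mark had 1 library per line and condition, so the line is the replicate and 4 libraries entered each test. Wild type libraries were not used here, so an effect of HOT itself and the loss of Ash2l cannot be told apart.

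Complexes I and II pass electrons from NADH and succinate to ubiquinone, complex III passes them on to cytochrome c, and complex IV reduces oxygen. The proton gradient built by complexes I, III and IV drives ATP synthesis by complex V, the F1Fo ATP synthase. Nearly all subunits are encoded in the nucleus, mostly at CpG-rich promoters of genes active in every tissue, and NRF1, YY1 and ERRα are known regulators of many of them. H3K4me3 marks the start sites of active genes, and H3K4me1 is typical of enhancers and of the flanks of promoters.

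One promoter per complex is shown, because these 5 starts carry values given below and hold matches of the motifs described at the end. Each sequence runs from 250 bases before to 50 bases from the RefSeq start in the mm9 genome, 5′ to 3′ on the strand of the gene, and capitals mark matches of the NRF1 motif (GCGCANGCG), the YY1 motif (AAGATGGC) and the ERR motif (AAGGTCA) on either strand. The windows are Ndufs7 of complex I at chr10:79711944-79712243 (plus strand), Sdhd of complex II at chr9:50411905-50412204 (minus strand), Uqcrc1 of complex III at chr9:108838411-108838710 (plus strand), Cox6a1 of complex IV at chr5:115798918-115799217 (minus strand) and Atp5k of complex V at chr5:108863369-108863668 (minus strand).
Ndufs7: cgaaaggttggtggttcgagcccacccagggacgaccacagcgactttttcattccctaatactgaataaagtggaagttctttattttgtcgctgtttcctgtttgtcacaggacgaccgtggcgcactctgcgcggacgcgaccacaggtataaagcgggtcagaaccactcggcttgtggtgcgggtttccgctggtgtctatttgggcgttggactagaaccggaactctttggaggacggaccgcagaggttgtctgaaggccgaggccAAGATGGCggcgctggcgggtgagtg
Sdhd: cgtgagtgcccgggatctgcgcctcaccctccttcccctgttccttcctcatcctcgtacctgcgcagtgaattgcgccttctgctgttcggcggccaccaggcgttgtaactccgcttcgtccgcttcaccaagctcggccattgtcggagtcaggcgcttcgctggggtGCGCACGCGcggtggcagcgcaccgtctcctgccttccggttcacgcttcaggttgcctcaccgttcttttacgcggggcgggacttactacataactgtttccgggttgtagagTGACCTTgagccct
Uqcrc1: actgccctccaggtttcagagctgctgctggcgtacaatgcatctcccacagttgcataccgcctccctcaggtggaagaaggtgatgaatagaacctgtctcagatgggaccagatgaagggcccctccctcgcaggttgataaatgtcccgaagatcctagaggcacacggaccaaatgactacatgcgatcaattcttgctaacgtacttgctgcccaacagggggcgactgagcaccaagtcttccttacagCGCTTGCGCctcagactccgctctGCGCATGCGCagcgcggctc
Cox6a1: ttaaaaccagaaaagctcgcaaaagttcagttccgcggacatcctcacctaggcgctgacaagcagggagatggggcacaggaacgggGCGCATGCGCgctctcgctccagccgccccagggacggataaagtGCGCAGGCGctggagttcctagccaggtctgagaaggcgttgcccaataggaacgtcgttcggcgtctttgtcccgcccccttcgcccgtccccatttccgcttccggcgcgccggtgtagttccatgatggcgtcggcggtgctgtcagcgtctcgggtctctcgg
Atp5k: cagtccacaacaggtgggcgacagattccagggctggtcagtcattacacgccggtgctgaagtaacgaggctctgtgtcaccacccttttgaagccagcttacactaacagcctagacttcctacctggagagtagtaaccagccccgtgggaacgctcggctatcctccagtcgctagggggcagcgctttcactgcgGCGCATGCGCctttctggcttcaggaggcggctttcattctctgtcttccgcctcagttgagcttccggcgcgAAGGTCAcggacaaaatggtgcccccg
Counted from 1 at the start, Ndufs7 has a YY1 match beginning at position 25, and Uqcrc1 has NRF1 matches at positions 7 and 31. Sdhd has an NRF1 match at position -79 and an ERR match at position 37, and Atp5k has them at positions -50 and 24. Cox6a1 has NRF1 matches at positions -162 and -117.

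Values are reads per region after the scaling of the 2 libraries of a line to the lower coverage, and a log2 ratio is +HOT over -HOT on the log2(value + 1) scale. Reads in regions numbered between 2441698 and 17708078 per H3K4me3 library and between 6157647 and 9048056 per H3K4me1 library. All 6 of 6 fibroblast genes looked up (such as Col1a1, Vim and Pdgfrb) and 2 of 6 genes of blood, epithelial or endothelial cells (Epcam and Cdh1) had an H3K4me3 promoter region. These libraries hold no direct readout of exon 4 of Ash2l. H3K4me3 was lower after HOT nearly everywhere. In the limma test across 16129 regions with more than 20 reads, 86.5% fell and 0.0744% rose. Among tested promoter regions 85.2% fell, and the median ratio was -1.0 for KO1 and -1.47 for KO2. The scaling has no external standard, so each change is also given relative to the median of all tested regions, which was -1.06 in KO1 and -1.63 in KO2. The standard error of the mean log2 ratio was 0.391 for every H3K4me3 region, so calls follow the size of the change and pass at a mean of about -0.79.

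The oxidative phosphorylation promoters lost H3K4me3 in both lines, and less of it than promoters at large. Of 77 tested regions, 47 fell (61.0%), 30 did not pass the test and 0 rose, beside 85.2% that fell among all promoter regions. All 77 regions had ratios below 0 in both lines, and 70 were lower in KO2 than in KO1. Their median ratio was -0.74 in KO1 and -0.91 in KO2, so that 60.1% and 53.0% of the signal was left, against 50.0% and 36.1% over all promoter regions. Relative to the median of all tested regions the direction turns round, with 26 members higher (9.42% of all tested regions were higher), 5 lower (23.2%) and median ratios of 0.32 in KO1 and 0.71 in KO2. The share that passed depends on the model of the spread, since limma with a trend in signal and edgeR each called 75 of 77 members, with Uqcrc1 and Cox7b as the exceptions. Over all tested regions these models called a fall in 14927 (trend) and 15222 (edgeR) of 16129. Under both, the share of members that fell was no lower than that of all regions. At the ratio threshold of the study, a log2 ratio beyond 0.58 with more than 20 reads, 57 of 80 members were lost in both lines, beside 76.3% of all promoter regions. In KO2 80 of 80 passed this threshold, where 98.6% of promoter regions did. The 3 untested regions are the upstream region of Ndufb4, the region inside Atp5c1 and the nearer region of Ndufa4l2, which had too few reads.

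Most members were strongly marked to begin with. The deposited lists placed 61 of 80 regions among the high promoters in both lines, 2 among the medium and 4 among the low, while 13 differed between the lines. The high class is a common one. It held 69 of 80 members and 8820 of 15584 promoter regions in KO1, and 61 of 80 members and 6436 of 15584 in KO2. With all tested promoter regions divided into 10 groups of equal size by -HOT reads per kb, 36 of 77 members lay in the 2 groups of highest signal and 7 in the 2 of lowest signal. The group of highest signal had a median ratio of -0.69 in KO1 and -0.91 in KO2 over all its promoters, close to that of the members. Set against promoters of their own group, 51 of 77 members lay above its median ratio in both lines and 15 below it in both. Of all tested promoter regions, 5228 of 13527 lay above the median of their group in both lines. Across the 77 members the ratios of KO1 and KO2 ran together (Pearson's r = 0.863, Spearman's rho = 0.842, as a description of members that share the 4 libraries).

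**Figure D1:**
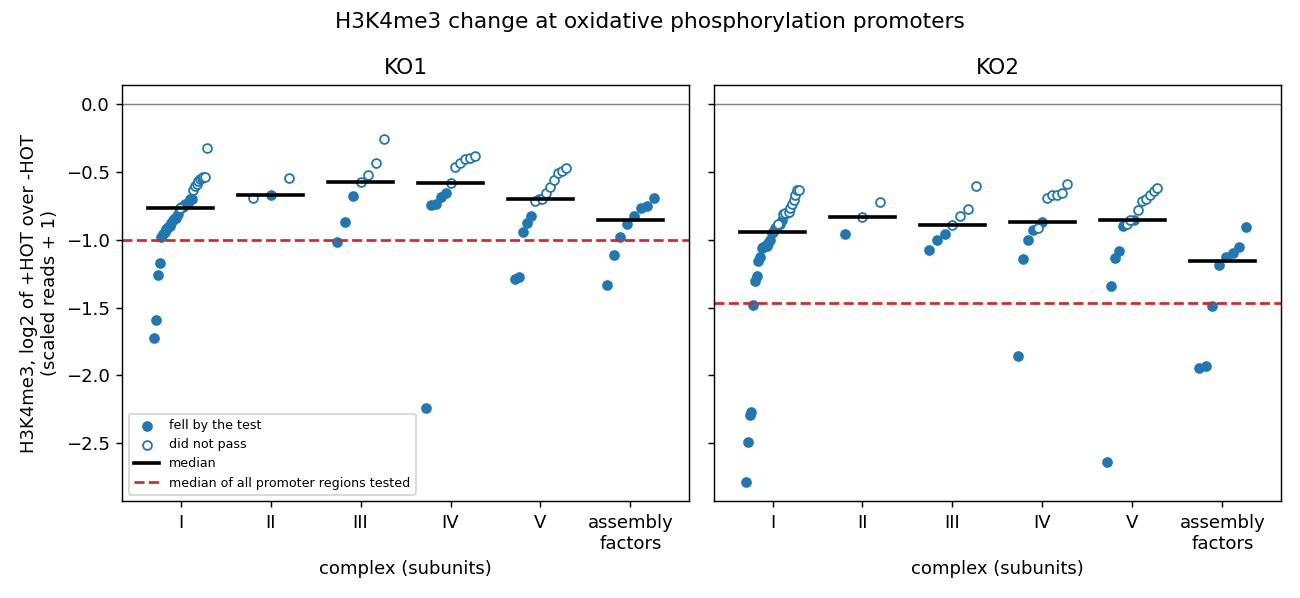
Log2 ratio of H3K4me3 (+HOT over -HOT, scaled reads + 1) of each tested region of subunits (complexes I to V) and assembly factors in KO1 and KO2. Filled points fell by the test, open points did not pass, bars are group medians and the dashed line is the median over all tested promoter regions (-1.0 and -1.47). Every point lies below 0, and relative to the median of all tested regions the group medians lie above 0.

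Of the complex I subunit regions 22 of 32 fell and none rose, where 85.2% of all promoter regions fell. Their median ratio was -0.76 in KO1 and -0.95 in KO2, which is 0.29 and 0.68 above the median of all tested regions. Per kb, the median complex I region held 103 scaled reads in +HOT and 178 in -HOT cells of KO1, and 337 in +HOT and 681 in -HOT cells of KO2. Regions of the core subunits, which carry the redox centres, passed in 6 of 8 cases. Ndufs8, which holds iron-sulfur clusters of the peripheral arm, had 152 scaled reads in +HOT and 344 in -HOT cells of KO1, and 511 in +HOT and 1426 in -HOT cells of KO2. Its mean ratio was -1.33 (adjusted p = 0.00135), the most of the core subunits over their starts, though it lies 0.017 above the median of all tested regions. Ndufv2, which carries an iron-sulfur cluster, fell (-0.90, adjusted p = 0.0275), as did, close to the threshold, Ndufs7 (-0.79, 0.0494). Ndufs3 (-0.65, adjusted p = 0.0997) and the start region of Ndufv1, which binds FMN and oxidises NADH (-0.71, 0.0772), did not pass.

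The accessory subunits of complex I spanned the whole range. Ndufb8 had the highest mean ratio, with 305 scaled reads in +HOT and 383 in -HOT cells of KO1, and 862 in +HOT and 1372 in -HOT cells of KO2 (mean -0.50, adjusted p = 0.206). Ndufa13, also known as GRIM-19, had the lowest over its start, with 16 scaled reads in +HOT and 39.8 in -HOT cells of KO1, and 40 in +HOT and 229 in -HOT cells of KO2. It is a weakly marked region, it fell by 1.87, and it stayed below the median of all tested regions in both lines.

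Complex II, succinate dehydrogenase, is built from 4 nuclear subunits, and 3 of them had a region of their own name. Sdhc, a membrane anchor, had 221 scaled reads in +HOT and 353 in -HOT cells of KO1, and 658 in +HOT and 1279 in -HOT cells of KO2, and it fell (-0.82, adjusted p = 0.0437). Sdhb, the iron-sulfur subunit, had 270 in +HOT and 437 in -HOT cells of KO1, and 923 in +HOT and 1525 in -HOT cells of KO2, and did not pass (-0.71, adjusted p = 0.0768). The other anchor, Sdhd, was the most strongly marked of them, with 384 in +HOT and 562 in -HOT cells of KO1, and 1233 in +HOT and 2192 in -HOT cells of KO2 (-0.69, 0.0843). The start of Sdha, the flavoprotein, lies in a region named after its neighbour Ccdc127 (-0.75, adjusted p = 0.0634). All of these genes were therefore between -0.69 and -0.82, a range much narrower than the standard error of 0.391.

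Complex III regions passed in 3 of 7 cases, where 85.2% of all promoter regions fell, with median ratios of -0.58 in KO1 and -0.89 in KO2. None of the 3 core genes taken by name passed. Cyc1, a complex III subunit with another name, is given with the other genes of the pathway. Uqcrc1, core protein 1, had the highest mean ratio of all members. It had 295 scaled reads in +HOT and 353 in -HOT cells of KO1, and 741 in +HOT and 1130 in -HOT cells of KO2. This left 83.5% and 65.6% (mean -0.43, adjusted p = 0.270). Uqcrc2, core protein 2 (-0.71, adjusted p = 0.0770), and Uqcrfs1, the Rieske iron-sulfur protein (-0.70, 0.0788), lay just short of the threshold. The regions that fell were those of the small subunits Uqcr11 (-0.99, adjusted p = 0.0161), Uqcr10 (-0.98, 0.0175) and Uqcrq (-0.84, 0.0380).

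Complex IV subunits passed in 5 of 11 regions, where 85.2% of all promoter regions fell. Their median ratio was -0.58 for KO1 and -0.87 for KO2 (-1.0 and -1.47 for all promoter regions). The highest means, equal to 2 decimals, were those of Cox7b, Cox6c and Cox6b1. Cox7b, subunit 7b, had 155 scaled reads in +HOT and 205 in -HOT cells of KO1, and 594 in +HOT and 936 in -HOT cells of KO2 (-0.53, adjusted p = 0.181). Cox5a fell (-0.94, adjusted p = 0.0216) and Cox5b did not pass (-0.75, 0.0629), although the difference between these 2 genes is smaller than the standard error. The start of Cox4i1, the widely expressed isoform of subunit 4, lies in the region of its neighbour Emc8, which fell (-0.83). The testis isoform Cox6b2 had a lower mean ratio than the widely expressed subunits of the complex. It had 15 scaled reads in +HOT and 94.5 in -HOT cells of KO1, and 58 in +HOT and 474 in -HOT cells of KO2, so that 15.9% and 12.2% were left (-2.79, adjusted p = 1.07e-10). For Cox6b1, its widely expressed counterpart, the mean was -0.53 (adjusted p = 0.181). No H3K4me3 region of these data lay over the starts of the 6 other tissue isoforms looked up, Cox4i2, Cox6a2, Cox7a1, Cox7b2, Cox8b and Cox8c.

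Complex V had 6 of 14 tested regions that fell, beside 85.2% of all promoter regions, with median ratios of -0.70 in KO1 and -0.86 in KO2. Among the F1 genes 2 of 4 regions passed. Atp5c1, the gamma subunit of the central stalk, was the most strongly marked, with 524 scaled reads in +HOT and 727 in -HOT cells of KO1, and 1611 in +HOT and 2479 in -HOT cells of KO2 (-0.55, adjusted p = 0.166). Atp5e, the epsilon subunit on the same stalk, had 107 in +HOT and 263 in -HOT cells of KO1, and 376 in +HOT and 952 in -HOT cells of KO2, and fell by 1.31 (adjusted p = 0.00152). Over their starts, these 2 genes of one stalk thus had the smallest and the largest loss of the complex, a difference that was not tested. The delta subunit Atp5d fell as well (-0.98, adjusted p = 0.0167). Atp5b, the beta subunit with the catalytic sites, did not pass (-0.74, 0.0650), nor did the region that holds the start of Atp5a1 (alpha), which is named after Haus1 (-0.71). The ring subunit c is encoded by Atp5g1, Atp5g2 and Atp5g3, and 2 of their 4 regions fell, both of Atp5g1. Atp5k, a small Fo subunit, had 231 scaled reads in +HOT and 377 in -HOT cells of KO1, and 648 in +HOT and 1211 in -HOT cells of KO2 (-0.80, adjusted p = 0.0472).

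**Figure D2:**
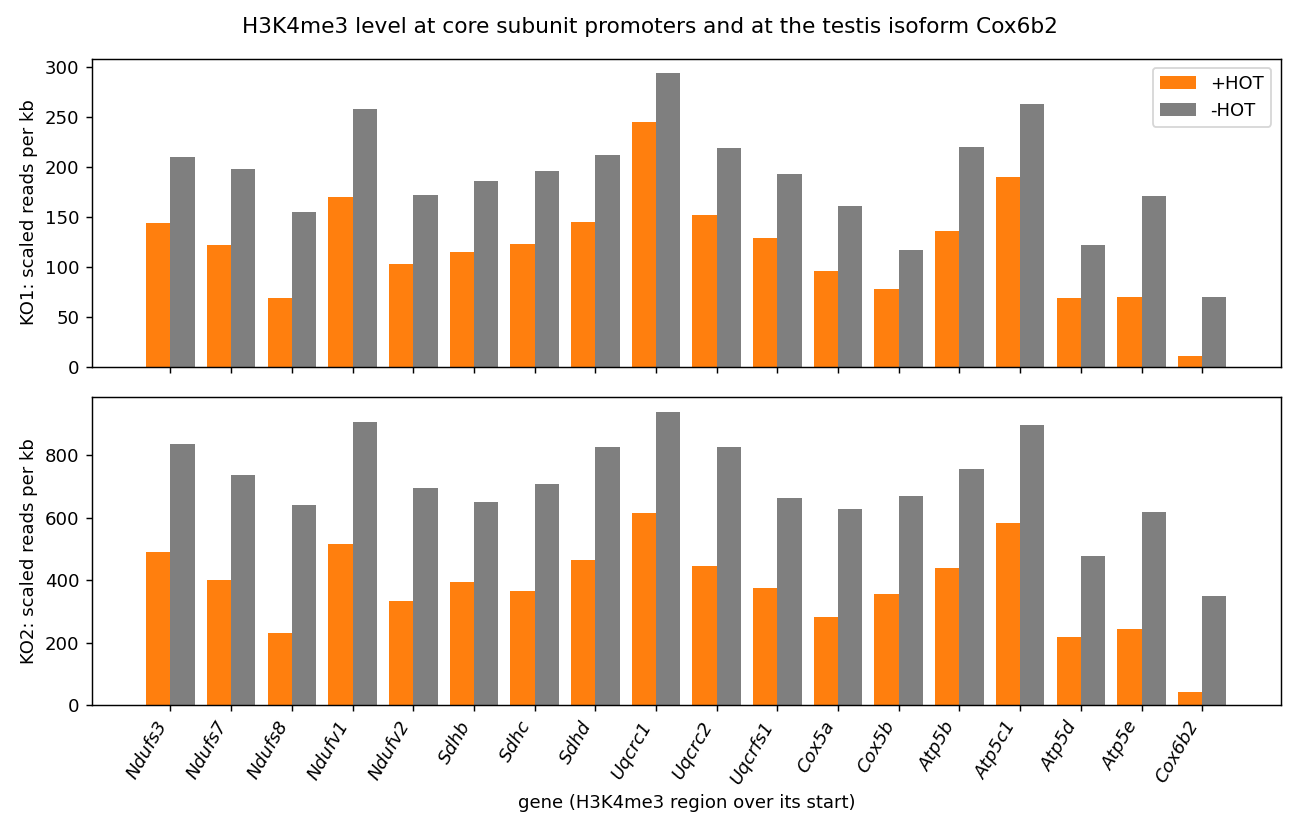
H3K4me3 signal (scaled reads per kb, linear axis from 0, 1 library per bar) over gene starts in +HOT and -HOT cells of KO1 and KO2. The genes are named core subunits, Cox5a and Cox5b (accessory subunits of complex IV) and the testis isoform Cox6b2. In each line the +HOT bar is lower than the -HOT bar at every gene shown, by the smallest proportion in KO1 at Uqcrc1 (83.5% left) and by the largest in both lines at Cox6b2 (15.9% and 12.2% left).

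With 3 to 32 tested regions per complex, the medians of complexes II, III, IV and V ran between -0.70 and -0.58 in KO1 and between -0.89 and -0.83 in KO2. No difference between complexes was tested. With the trend in signal or with edgeR, 32 of 32 complex I, 3 of 3 complex II, 6 of 7 complex III, 10 of 11 complex IV and 14 of 14 complex V subunit regions fell. Of all tested regions, 14927 (trend) and 15222 (edgeR) of 16129 fell. Counting 1 region per gene in the main test, 19 of 29, 1 of 3, 3 of 7, 4 of 10 and 5 of 13 genes of complexes I to V fell. In that test 85.2% of all promoter regions fell.

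Assembly factors, which help to build the complexes and are not part of them, passed in 8 of 8 regions, where 85.2% of all promoter regions fell. Their median ratios were -0.86 in KO1 and -1.16 in KO2, lower than those of the subunits of any of the 5 complexes. These medians still lay 0.20 and 0.47 above the median of all tested regions. Relative to that median, 0 of 8 passed as higher (10.0% of all promoter regions) and 0 as lower (2532 of 13527). In KO1 the assembly factors were less strongly marked than the subunits, with a median of 88.0 scaled reads per kb in +HOT and 163 in -HOT cells, beside 113 in +HOT and 191 in -HOT cells for all subunits. In -HOT cells of KO2 the medians were closer, at 676 for assembly factors and 700 for all subunits, and complex IV subunits had 675. In +HOT cells of KO2 they were 278 and 370. The median ratio of the assembly factors lay 0.030 in KO1 and 0.016 in KO2 above that of promoters of like signal. Sdhaf1, an assembly factor of complex II, had 90 scaled reads in +HOT and 229 in -HOT cells of KO1, and 219 in +HOT and 839 in -HOT cells of KO2 (-1.63). Ndufaf3 of complex I had 227 in +HOT and 491 in -HOT cells of KO1, and 486 in +HOT and 1873 in -HOT cells of KO2 (-1.53). Both were below the median of all tested regions, whereas Cox7a2l, which joins complexes III and IV, was close to the subunits (-0.83, adjusted p = 0.0404). Ndufa4l2, the paralog of Ndufa4 that is induced by hypoxia, had its tested region upstream (centre at -2666 bp from the start), and it fell the most of all members, with 22 scaled reads in +HOT and 125 in -HOT cells of KO1, and 70 in +HOT and 660 in -HOT cells of KO2 (-2.84, adjusted p = 6.54e-11). Ndufa4 itself, now placed in complex IV, fell by 0.79 (adjusted p = 0.0493).

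H3K4me3 was split into more than 1 region at 8 genes, 2 regions each, and where one lay upstream and one over the start, the upstream region had the lower ratio. At Cox8a the mean ratio was -2.05 upstream and -0.55 over the start, and at Ndufs7 it was -1.94 and -0.79. At Ndufv1 the values were -1.52 upstream and -0.71 over the start, at Atp5g1 -1.96 and -1.01, and at Ndufa13 -2.26 and -1.87. The upstream regions were weak, for instance 7 scaled reads in +HOT and 36.8 in -HOT cells of KO1 at Cox8a, beside 247 and 327 over its start. Upstream regions of members fell in 6 of 6 tests (medians -1.66 in KO1 and -2.46 in KO2), and upstream regions of all promoters in 879 of 884 (-1.53 and -2.28), so this was not particular to these genes. Over the start 41 of 71 members fell (-0.70 and -0.90), against 9873 of 11734 of all promoter regions (-0.96 and -1.38).

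**Figure D3:**
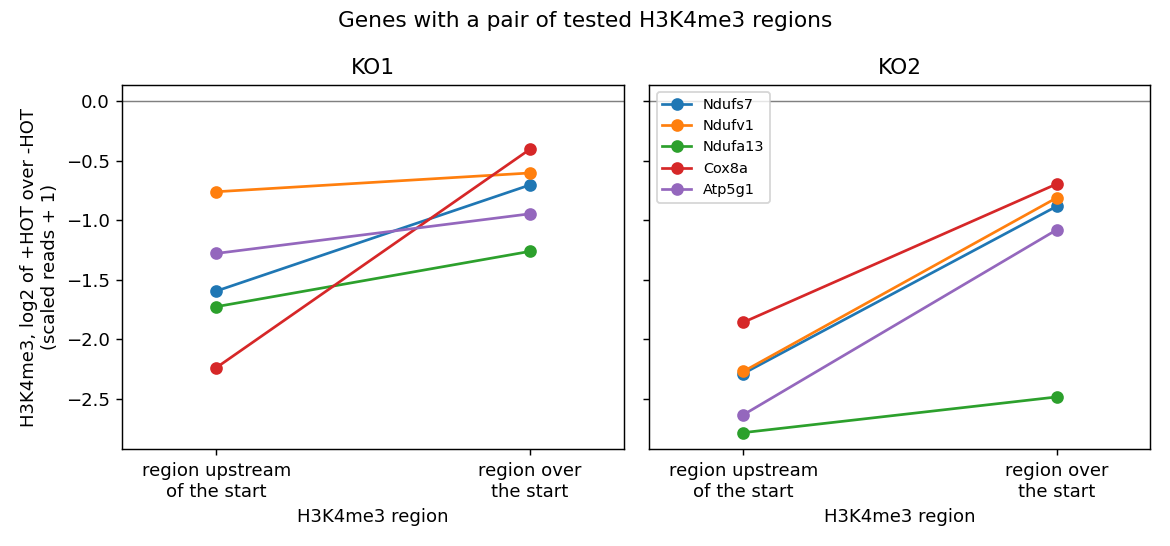
Log2 ratio of H3K4me3 (+HOT over -HOT, scaled reads + 1) in KO1 and KO2 for the upstream region and the region over the start of the genes with both regions tested, 1 line per gene. At each gene and in both lines the upstream region lies lower, as at Cox8a with mean ratios of -2.05 upstream and -0.55 over the start.

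H3K4me1 moved the other way at the same promoters. Of the 80 regions, 75 overlapped an H3K4me1 region, and of the 110 overlapping H3K4me1 regions 99 were tested. There 74 rose (74.7%), 1 fell and 24 did not pass, while among H3K4me1 regions overlapping any promoter region 66.1% rose and 2.94% fell, and among all tested H3K4me1 regions 14.8% rose and 2.57% fell. The median ratio of the members was 1.04 in both lines, and 72 of 110 were gained at the threshold of 0.58 in both lines, beside 53.2% at all promoters. Relative to the median of all tested H3K4me1 regions (0.30 in KO1 and 0.08 in KO2), 50 of 99 rose and 1 fell, a share near that of all promoter overlaps, where 7013 of 14779 rose and 508 fell. By complex, 29 of 38 tested H3K4me1 regions rose for complex I, 2 of 3 for complex II, 8 of 11 for complex III, 10 of 15 for complex IV and 18 of 21 for complex V (among them Atp5k, by 0.80), and 6 of 9 for assembly factors.

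The largest gains among subunits were inside the H3K4me3 region, over or downstream of the start. At Cox6a1, the widely expressed isoform of subunit 6a, H3K4me1 had 56 scaled reads in +HOT and 10 in -HOT cells of KO1, and 88.2 in +HOT and 16 in -HOT cells of KO2 (2.38, adjusted p = 3.24e-06). Atp5c1 had 79 in +HOT and 16 in -HOT cells of KO1, and 93.6 in +HOT and 17 in -HOT cells of KO2, and Uqcrc2 had 50 in +HOT and 12 in -HOT cells of KO1, and 63.6 in +HOT and 11 in -HOT cells of KO2 (2.20). Uqcrc1, with the highest mean H3K4me3 ratio, rose by 2.08. The highest values of complexes I and II were lower and not wholly inside the H3K4me3 region. They were 1.96 at Ndufc2, in a region over an edge, and 0.90 at Sdhd, in one spanning the whole H3K4me3 region. Across 71 members with both marks, the H3K4me3 and H3K4me1 changes showed little relation (Pearson's r = 0.244, Spearman's rho = 0.0189, as a description over members of the same libraries).

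Position separated the H3K4me1 regions. Those wholly inside the H3K4me3 region rose in 33 of 33 tests with a median of 1.35, against 90.7% and 1.69 for all promoters. Those that overlapped only an edge rose in 35 of 56 tests with a median of 0.88, against 53.5% and 0.78, and 6 of 10 that spanned the whole region rose. Seen from the start, 22 of 25 regions over the start, 38 of 46 downstream and 14 of 28 upstream rose, where 78.3%, 64.9% and 53.5% did at all promoters. Ndufs7 upstream was the one member that fell, with 22 scaled reads in +HOT and 39 in -HOT cells of KO1, and 21.8 in +HOT and 44 in -HOT cells of KO2 (-0.89, adjusted p = 0.0142). This region overlaps the upstream H3K4me3 region that also lost signal. The lowest members of the other complexes did not pass: Uqcr11 at -0.52, an edge region of Cox6a1 at -0.47, Atp5g1 at -0.32 and Sdhc at 0.66. An H3K4me1 region of Ndufb10 did not pass and had ratios of opposite sign, -0.30 in KO1 and 0.21 in KO2. No H3K4me1 region overlapped Cox6b2 or the upstream region of Ndufv1. At Ndufa10, Sdhaf4 and Cox5b on chromosome 1 the deposited KO1 values were unusable, and these genes have no H3K4me1 test.

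**Figure D4:**
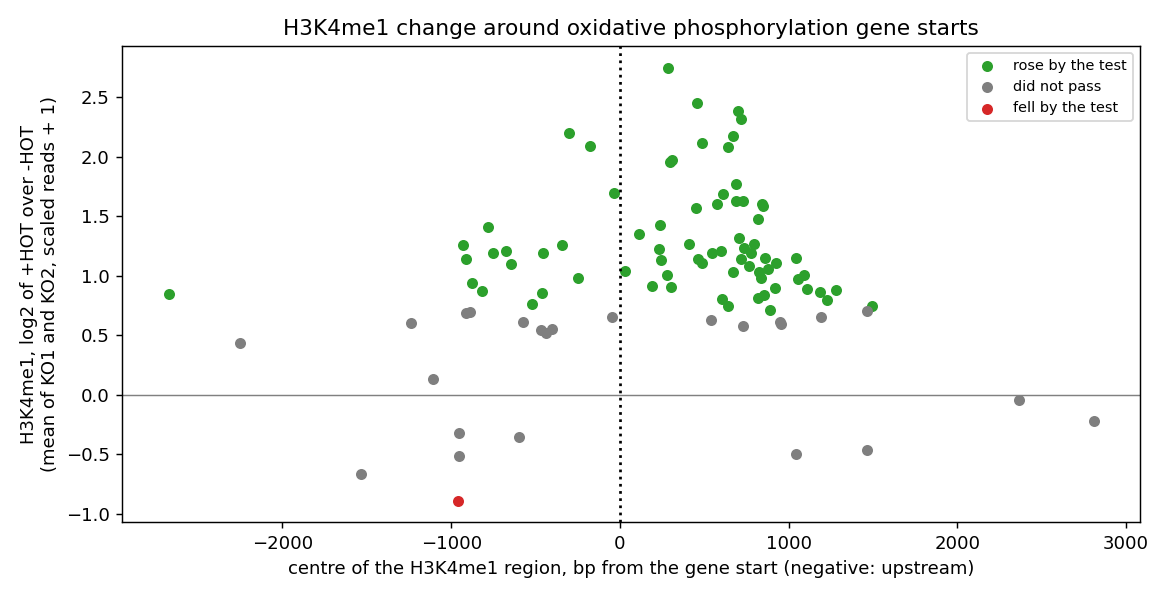
Mean log2 ratio of H3K4me1 (+HOT over -HOT, scaled reads + 1, mean of KO1 and KO2) of each tested region overlapping a member, against the distance of its centre from the gene start in bp, with upstream negative. Colours give the test: 74 regions rose, 24 did not pass and 1 fell, upstream of Ndufs7 at -0.89.

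The promoter windows (250 bases before to 50 after the start, both strands) of the 72 genes were searched for short motifs and set beside the windows of 12710 promoters. The NRF1 motif GCGCANGCG was found in 19 of 72 windows (26.4%, against 12.9% of all promoters), the YY1 motif AAGATGGC in 10 (13.9%, against 4.18%) and the ERR motif AAGGTCA in 9 (12.5%, against 2.59%). At least 1 of these 3 was found in 31 windows (43.1%, against 18.5%). By complex, YY1 matches lay in 8 of 33 complex I windows, assembly factors included, with 1 more at Sdhc and 1 at Ndufa4l2, and none at complexes III, IV and V. ERR matches lay in 5 of 13 complex V windows (Atp5e, Atp5g3, Atp5k, Atp5l and Atp5mpl), and NRF1 matches in 6 of these 13. The GC box GGGCGG was less frequent than elsewhere (35 windows, 48.6%, against 68.1%), and CCGGAAGT, bound by ETS factors and GABP, was found in 4 windows (5.56%, against 7.31%). CCAAT was found in 28 windows (38.9%, against 36.8%) and TATAAA in 7 (9.72%, against 6.59%). The median GC content of the windows was 58.0%, against 62.0%. Matches of GCGCATGCG overlap their own reverse complement, as in Uqcrc1, Cox6a1 and Atp5k, and are counted once per window, while no 2 different motifs marked in capitals overlap in the windows shown. A match is a run of letters and not a measured binding site, and GC content and H3K4me3 change were only weakly related across members (Pearson's r = -0.203, n = 77, a description).

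**Figure D5:**
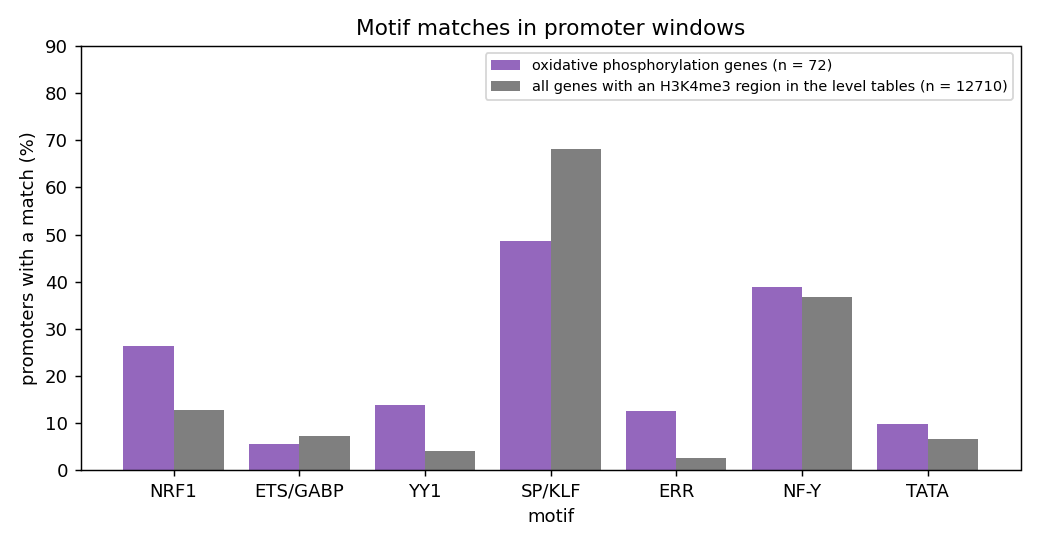
Percent of promoter windows with each motif, for the 72 member genes and for all 12710 promoters (bars from 0). NRF1 (26.4% against 12.9%), YY1 (13.9% against 4.18%) and ERR (12.5% against 2.59%) are more frequent among members, and the GC box less (48.6% against 68.1%).

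A divergent protein-coding neighbour within 1000 bp was present at 15 of 72 member genes (20.8%, against 9.45% of all promoters). Members with such a neighbour fell in 7 of 15 cases (medians -0.66 in KO1 and -0.88 in KO2) and those without in 34 of 56 (-0.74 and -0.91). Of all promoters with such a neighbour, 933 of 1195 fell (78.1%, medians -0.86 and -1.13). For 14 further subunit genes the start lay in a region named after another gene, which the choice by name had missed. Of these 3 of 14 fell, in the regions of Ndufa11, Ndufb9 and Cox4i1, beside 61.0% of tested members and 85.2% of all promoter regions. Medians over all 14 were -0.58 in KO1 and -0.85 in KO2, above the -0.74 and -0.91 of the members. Ndufs1, the largest core subunit of complex I, is among them, in the region of Eef1b2 (-0.65), and Atp5j of the peripheral stalk shares its region with Gabpa (-0.71). Reads over a shared start cannot be assigned to one of the 2 genes.

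Other genes of the pathway were taken from lists by role, and no region of these lists rose in H3K4me3, while 85.2% of all promoter regions fell. Genes of the citric acid cycle, which supplies NADH and succinate, fell in 6 of 12 tests (medians -0.67 in KO1 and -0.92 in KO2), close to the subunits. Genes of ubiquinone synthesis fell in 7 of 9 (-0.90 and -1.11). Assembly factors with other names, such as those of complex IV, fell in 23 of 27 (-1.11 and -1.26), at the share of all promoter regions. In the cytochrome c group, which also holds Cyc1 of complex III and the ATP synthase inhibitor Atpif1, 2 of 3 genes fell. Cycs had -0.89 and Atpif1 -1.08, while Cyc1 (-0.76) did not pass. Among regulators of mitochondrial biogenesis 10 of 13 fell. The coactivators Ppargc1a (-2.65) and Ppargc1b (-2.39) were the furthest down, Esrra, which encodes ERRα, had -1.44, Nrf1 had -0.92 and Tfam, which packs mitochondrial DNA, had -0.90. Gabpa (-0.71) and Yy1 (-0.62) did not pass. H3K4me1 rose in 10 of 12 tested regions of the citric acid cycle genes, 7 of 8 of ubiquinone synthesis and 19 of 27 of the other assembly factors. It rose in 3 of 3 of the cytochrome c group and 10 of 13 of the regulators, where 1 fell. Of H3K4me1 regions overlapping any promoter region 66.1% rose. That share counts every overlapping region, while the lists hold 1 H3K4me1 region per gene, so the shares are not like for like.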

How the data were processed

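H3K4me3 and H3K4me1 ChIP-seq of KO1 and KO2 cells (8 libraries) was analysed. The upstream steps, from the study's methods, were alignment with BWA (mm9), SAMtools, and removal of duplicates and blacklisted regions. Regions had been called with Macs2 as narrow (H3K4me3) or broad (H3K4me1) peaks and annotated with Homer. Where the header says raw, the deposited values are counts of reads per region. The other deposited columns are signal, counts that the authors divided by 1 factor per library to reach the lowest coverage of the line, and 100% of values were whole within 0.001 after multiplication by that factor (1.33 for H3K4me3 -HOT of KO1, 1.01 for H3K4me3 -HOT of KO2, 1.10 for H3K4me1 +HOT of KO2). The deposited distance to the start, given by the authors in bases from the centre of a region, is not a read value. In KO1 H3K4me1, 5601 rows on chromosome 1 held interpolated values and were left out. The authors' log2 ratios, their lists of lost and gained regions and their motif p-values were not used.

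Members and gene lists were chosen with earlier results of these data known. Log2 ratios were computed on value + 1, and a region entered the limma test (version 3.58.1, R 4.3.3) if either condition exceeded 20 reads in each line, with the line as a block and Benjamini-Hochberg adjustment over all regions of the mark (threshold 0.05). With condition means removed, libraries of a line correlated at 0.587 (H3K4me3) and 0.580 (H3K4me1), and the lines are separate cell lines, so the line pairs the samples. The spread between the lines is the only replicate error. Alternatives were a pseudocount of 5, no read minimum or one of 50, no block, centring of the log2 ratios on their median, a trend in limma, edgeR 4.0.16 on the recovered reads, 1 region per gene, subunits only, another overlap and each line alone. The split of H3K4me1 regions by side of the start was added after seeing the data. The tests were run on simulated data first.

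Named genes are the core subunits of complexes I, II and III, the F1 subunits of complex V, with Cox4i1, Cox5a and Cox5b of complex IV. Also named are the lowest and highest subunit region of each complex and mark, the tissue isoforms and names that are not subunits. Members that moved in opposite directions or against the majority and genes with more than 1 region are named as well. Genes named beyond that were chosen after their values were seen. One gene that the rule names is not reported here. A gene with several regions is given by the region over its start. Promoter windows were read from the mm9 genome at the RefSeq starts of the deposited annotation, of which 70 of 72 for members lie within 100 bp of a GENCODE start. Python 3.11.15 was used with pandas 2.3.3, numpy 2.4.6 and matplotlib 3.10.9.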

Additional observations from a re-analysis of the deposited data

Results flagged for a closer look

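H3K4me1 moved in opposite directions in the 2 lines at Ndufb10, where the log2 ratio was -0.30 in KO1 and 0.21 in KO2, and the difference between the lines was not tested.

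In 3 genes on chromosome 1 the KO1 values of H3K4me1 were unusable, and KO2 alone showed more H3K4me1 in +HOT than in -HOT cells. Cox5b had 116 scaled reads in +HOT and 23 in -HOT cells (log2 ratio 2.29), Ndufa10 had 129 in +HOT and 47 in -HOT cells (1.44), and Sdhaf4 had 77.3 in +HOT and 33 in -HOT cells (1.20). These have no replicate.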

How the results depend on the processing

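With 1 library per line and condition, and 4 per test, calls rest on the model of the spread and directions rest on the scaling. The number of members whose H3K4me3 fell, 47, became 16 with no read minimum (of 80 regions, 13 among the 77 tested before), 5 with the median log2 ratio set to 0, and 75 with limma with a trend in signal and with edgeR on the recovered reads. Over all regions, 13222 of 22343 fell with no read minimum. Of 16129 regions, 3744 fell with the median set to 0, 14927 with the trend and 15222 with edgeR. With the median set to 0, 26 rose in place of 0, beside 1519 of all 16129 regions. Without the line as a replicate block 0 fell (2 members at an unadjusted p under 0.05, limma), and of H3K4me1 25 rose and 0 fell. Over all regions this fit called 0 of 16129 for H3K4me3, while for H3K4me1 5010 rose and 103 fell of 78691. The number whose H3K4me1 rose, 74 of 99, became 26 of 110 with no read minimum, where 4977 of all 117165 H3K4me1 regions rose. The 1 fall of H3K4me1, at Ndufs7, became 0 with no read minimum, with more than 50 reads and with 1 region per gene. At a log2 ratio beyond 1, 11 members lost H3K4me3 and 42 gained H3K4me1 in both lines. No share over all regions is given at this cut, so these counts cannot set members against other promoters. The median H3K4me3 ratio of all tested promoter regions was -1.0 in KO1 and -1.47 in KO2. Each line alone gave 57 to 80 lost (76.5% of all promoter regions in KO1 and 98.6% in KO2). For H3K4me1 it gave 81 to 82 gained, and no share per line is given. In both lines together 53.2% of H3K4me1 regions at all promoters were gained. Median H3K4me3 ratios per line were -0.95 to -0.76 (complex I), -0.83 to -0.67 (II), -0.89 to -0.58 (III), -0.87 to -0.58 (IV) and -0.86 to -0.70 (V).

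Setting the median to 0 in each line reversed the median mean ratio of H3K4me3 to 0.48 (complex I), 0.64 (II), 0.64 (III), 0.60 (IV) and 0.61 (V). It also reversed 32 named H3K4me3 regions, by its own construction: Ndufb10 0.33, Ndufb4 0.56, Ndufb8 0.85, Ndufc2 0.51, Ndufaf1 0.40, Ndufaf4 0.29, Ndufaf6 0.41, Ndufs3 0.69, Ndufs7 0.55, Ndufs8 0.017, Ndufv1 0.64, Ndufv2 0.44, Sdhaf3 0.16, Sdhaf4 0.41, Sdhb 0.64, Sdhc 0.53, Sdhd 0.65, Uqcr11 0.35, Uqcrc1 0.91, Uqcrc2 0.64, Uqcrfs1 0.64, Cox5a 0.40, Cox5b 0.60, Cox6a1 0.54, Cox7b 0.82, Cox8a 0.79, Cox7a2l 0.51, Atp5b 0.60, Atp5c1 0.80, Atp5d 0.36, Atp5e 0.031 and Atp5g1 0.33. With a pseudocount of 5, the H3K4me3 calls of Ndufs7 and Cox6a1 no longer passed.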
